A study of Mus musculus with 24 samples.

Results

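The 28 genes described here encode the enzymes that turn acetyl-CoA into cholesterol, those that lead from the shared intermediates to the isoprenoids, and 3 proteins that esterify or carry cholesterol inside the cell. They were chosen by gene symbol, and all 28 were found among the 54432 gene rows of the deposited table and among the 19810 genes tested. They were read as 8 early genes (acetyl-CoA supply and the mevalonate steps up to farnesyl diphosphate), 11 late sterol genes (from squalene onward), 6 isoprenoid genes and 3 genes of esterification and transport. RNA from whole liver of 24 male C57BL/6 mice was sequenced, with 6 libraries in each of 4 groups. Mice labelled Trib1-KO carried floxed alleles of Trib1, Cebpa-KO mice floxed alleles of Cebpa, mice labelled DKO floxed alleles of both genes, and WT mice none. All 4 groups, WT included, received an adeno-associated virus encoding Cre recombinase by intraperitoneal injection when 20 to 21 weeks old. Liver was taken 4 weeks after injection from chow-fed mice fasted for 4 h, in 2 cohorts with 3 mice of each group. Trib1 encodes a pseudokinase that brings C/EBPα, the product of Cebpa, to an E3 ubiquitin ligase for degradation.

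The targeted genes were read first, as a check of the labels. Cebpa averaged 2668 ± 359 normalized counts in livers labelled Trib1-KO, 82.2 ± 17.5 in Cebpa-KO livers, 82.4 ± 18.1 in livers labelled DKO and 6019 ± 1057 in WT livers (SD, n = 6 each). Trib1 went against its label, with 4237 ± 358 normalized counts in livers labelled Trib1-KO, 333 ± 158 in Cebpa-KO livers, 732 ± 259 in livers labelled DKO and 1224 ± 204 in WT livers. The table holds 1 value per gene, so reads from the deleted stretch and from the rest of the transcript cannot be told apart, and every direction given below for livers labelled Trib1-KO or DKO carries this limit. Libraries summed to 23385900 to 27190700 normalized counts, with 19831 to 21189 genes above 0. The major urinary protein (Mup) genes took 21.0 to 26.7% of all counts in livers labelled Trib1-KO, 1.28 to 2.23% in Cebpa-KO livers, 1.43 to 4.54% in livers labelled DKO and 2.93 to 8.73% in WT livers. The 28 genes together took 0.129 to 0.294% of the counts of a library.

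In the mevalonate pathway, acetyl-CoA units are condensed and reduced to mevalonate, which is phosphorylated and decarboxylated to the isoprenoid building blocks. Farnesyl diphosphate is the branch point. Squalene formation commits it to sterols, while longer prenyl chains serve ubiquinone, dolichol and the lipid anchors of proteins. Genes of the sterol arm are classical targets of SREBP-2, a transcription factor released from the endoplasmic reticulum membrane when cholesterol is low, which binds sterol response elements together with NF-Y, a factor that binds CCAAT boxes. The liver is a main site of cholesterol synthesis.

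Promoter sequence from RefSeq (GRCm38.p6, 250 bases before to 50 after a start site) was at hand for 23 of the 28 genes, and 4 promoters are printed because their genes stand for the patterns described below. Hmgcs1 was lower in Cebpa-KO livers, Msmo1 was lower in every knockout group, and Tm7sf2 and Ebp were lowest in livers labelled Trib1-KO. Capitals mark exact matches to a sterol response element (TCACNCCAC) or a CCAAT box (ATTGG where it lies on the other strand), searched on both strands.
Hmgcs1 (chr13:119690101-119690400, plus strand): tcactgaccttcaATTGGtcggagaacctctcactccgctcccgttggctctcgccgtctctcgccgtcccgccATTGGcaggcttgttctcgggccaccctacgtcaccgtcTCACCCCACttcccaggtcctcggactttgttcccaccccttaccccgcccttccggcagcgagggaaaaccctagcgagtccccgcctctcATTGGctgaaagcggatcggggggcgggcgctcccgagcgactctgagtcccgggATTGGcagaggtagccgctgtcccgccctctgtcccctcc
Msmo1 (chr8:64733529-64733828, minus strand): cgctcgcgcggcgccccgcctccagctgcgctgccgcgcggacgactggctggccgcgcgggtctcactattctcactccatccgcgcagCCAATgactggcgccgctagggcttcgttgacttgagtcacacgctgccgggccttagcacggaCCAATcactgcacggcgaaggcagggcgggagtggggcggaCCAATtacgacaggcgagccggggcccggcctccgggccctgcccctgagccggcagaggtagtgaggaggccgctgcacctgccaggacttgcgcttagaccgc
Tm7sf2 (chr19:6067801-6068100, minus strand): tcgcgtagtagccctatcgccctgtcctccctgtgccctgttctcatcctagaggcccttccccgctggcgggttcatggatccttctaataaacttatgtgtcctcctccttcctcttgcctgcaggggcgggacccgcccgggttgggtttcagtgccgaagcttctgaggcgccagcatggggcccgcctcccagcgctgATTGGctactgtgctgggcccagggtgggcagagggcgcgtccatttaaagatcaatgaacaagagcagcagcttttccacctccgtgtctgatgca
Ebp (chrX:8193463-8193762, minus strand): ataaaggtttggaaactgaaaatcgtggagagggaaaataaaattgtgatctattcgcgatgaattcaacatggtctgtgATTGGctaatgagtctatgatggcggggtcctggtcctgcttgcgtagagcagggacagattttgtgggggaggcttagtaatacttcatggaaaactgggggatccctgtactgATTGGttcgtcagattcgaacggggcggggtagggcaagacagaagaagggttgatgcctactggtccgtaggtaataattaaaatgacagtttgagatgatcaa
The sterol response element letters occurred in 1 of the 23 promoters, that of Hmgcs1, where they began 137 bases upstream of the start site, against 1.24% of 32851 promoters of this length in the table. CCAAT occurred in 19 of the 23, namely in 6 of 7 early, 9 of 9 late sterol and 3 of 6 isoprenoid promoters and in that of Soat1, against 37.4% of all promoters. The C/EBP dimer letters TTGCNNAA occurred in 3 of the 23 (Dhcr7, Nsdhl and Pdss1), against 10.8% of all promoters. Of the 23 genes, 2 had several windows and so more chances of a match. These matches are descriptions of letters and not of binding, and the motifs do not overlap one another in the printed windows.

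Of the early genes 2 of 8, and of the late sterol genes 4 of 11, were called lower than in WT in each of the 3 knockout groups, and no isoprenoid gene was called by limma in any of them. How many of all genes tested were called lower in all 3 groups was not counted, so these counts have no background beside them. Whether the branches differ from each other was not tested. In livers labelled Trib1-KO, 15 of the 28 genes were lower and 0 higher than in WT, where 10.9% of all genes tested were called lower and 11.8% higher. In Cebpa-KO livers 10 of 28 were lower and 0 higher, against 5.22% of all genes called lower and 4.6% higher. In livers labelled DKO 16 of 28 were lower and 0 higher, against 3.25% lower and 2.84% higher. Genes were called at a limma adjusted p under 0.05, with Benjamini-Hochberg adjustment over all genes tested. At an unadjusted p under 0.05, 1 gene (Soat1) was higher in livers labelled Trib1-KO, 2 (Coq2 and Soat2) in Cebpa-KO livers and 0 in livers labelled DKO. The share of all genes at this unadjusted threshold was not counted for any comparison. The median log2 difference of the 28 genes was -0.50 in livers labelled Trib1-KO, -0.31 in Cebpa-KO livers and -0.58 in livers labelled DKO, where the median of all genes lay at 0.01, 0.01 and 0.00. All 6 livers of the group lay below all 6 WT livers in 9 of the 28 genes for livers labelled Trib1-KO, 5 for Cebpa-KO livers and 5 for livers labelled DKO, against 5.71%, 2.65% and 1.56% of all genes. The 3 comparisons share the same 6 WT libraries and are therefore not independent of each other. In whole liver, fewer cells of a type and less RNA per cell cannot be told apart.

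Branch by branch, the counts were as follows. Among the 8 early genes, 4 were lower in livers labelled Trib1-KO, 4 in Cebpa-KO livers and 7 in livers labelled DKO, with median log2 differences of -0.49, -0.74 and -0.92. Among the 11 late sterol genes, 9, 6 and 9 were lower in the same order, with medians of -0.88, -0.72 and -0.65. None of the 6 isoprenoid genes was called against WT (0, 0 and 0 by limma, medians of 0.02, 0.07 and 0.04). At an unadjusted p under 0.05 there was 1, Coq2, higher in Cebpa-KO livers. Of the 3 genes of esterification and transport, Soat2 and Stard4 were lower in livers labelled Trib1-KO and 0 were called in the other 2 knockout groups. Library by library, the mean log2 level of the late sterol genes relative to the WT mean was -0.97 to -0.51 in livers labelled Trib1-KO, -0.99 to -0.37 in Cebpa-KO livers, -1.11 to -0.17 in livers labelled DKO and -0.43 to 0.27 in WT livers. Livers labelled Trib1-KO therefore did not overlap with WT on this mean, while 1 or more libraries of the other groups did.

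**Figure D1:**
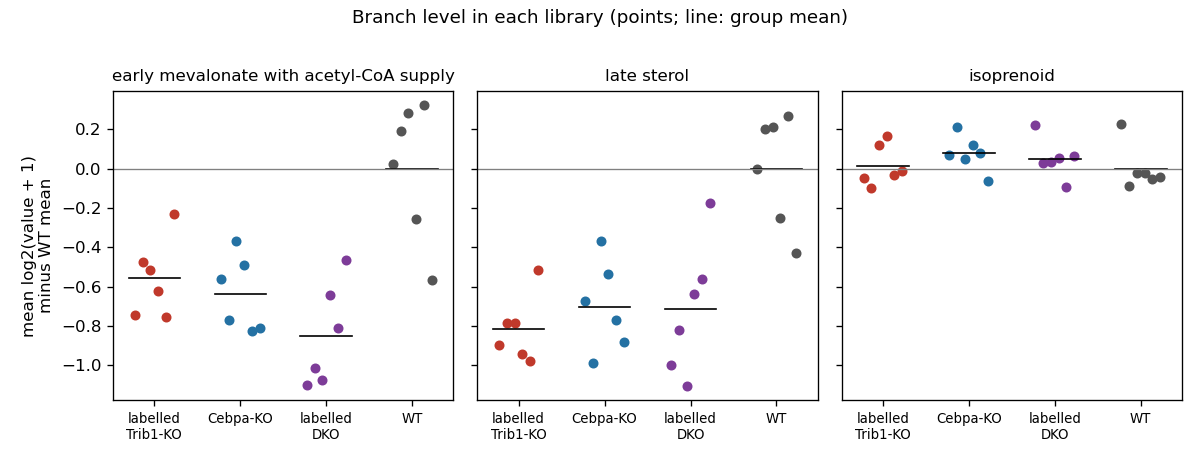
Mean over the genes of a branch of log2(value + 1) minus the WT mean, for each library (points) of the 4 groups, with the group mean as a line. Early and late sterol means of the knockout groups lie mostly below WT. The mean of the 6 isoprenoid genes stays between -0.10 and 0.23 in every library.

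The WT group itself was spread for these genes. The libraries WT B3 and WT B1 were the low ones. Of the 19 early and late genes, B3 was the lowest WT library in 14 and among the 2 lowest in 18, and B1 was among the 2 lowest in 16. B3 stood apart outside these genes too. Its Mup share was 2.93%, against 6.12 to 8.73% in the other WT libraries. Its summed level of Kupffer cell and macrophage markers was 17988, against 9915 to 13383 in the other WT libraries. Without B3 or without B1, 16 genes were lower in livers labelled Trib1-KO and 12 in Cebpa-KO livers, and without B3, 17 were lower in livers labelled DKO. Single high libraries stood in the knockout groups too. D3 was the highest of the libraries labelled Trib1-KO in 15 of the 19 genes, E3 the highest Cebpa-KO library in 15, and H3 the highest library labelled DKO in 13. The libraries labelled DKO also parted by the letter in their names. Relative to the WT mean, the mean log2 level of the early genes was -1.10, -1.01 and -1.08 in G1, G2 and G3 and -0.64, -0.81 and -0.47 in H1, H2 and H3. For the late sterol genes it was -0.998, -0.817 and -1.106 in G1, G2 and G3 and -0.635, -0.560 and -0.173 in H1, H2 and H3, so that all 3 G libraries lay below all 3 H libraries on both means. The labels do not say what the letters stand for. The median coefficient of variation in WT was 26.8% for early, 23.4% for late sterol and 14.6% for isoprenoid genes. Cohort could not be assigned to libraries, so values within a cohort cannot be given.

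**Figure D2:**
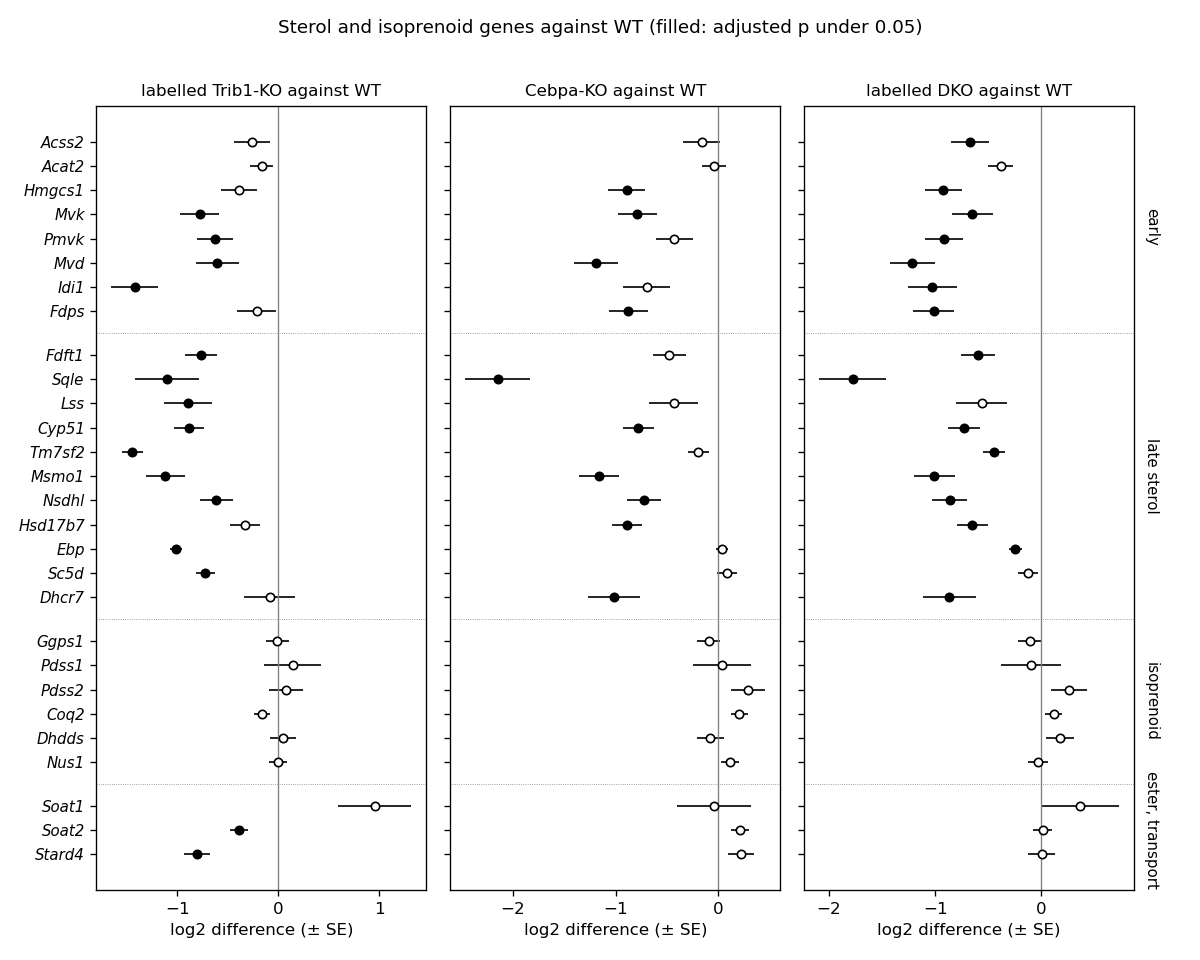
Log2 difference from WT with its standard error for each of the 28 genes, by branch from top to bottom, in livers labelled Trib1-KO (left), Cebpa-KO livers (middle) and livers labelled DKO (right). Filled points passed the limma test (15, 10 and 16 genes, all to the left of 0).

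The early enzymes were read in pathway order. Acss2, which makes acetyl-CoA from acetate, stood at 2228 to 5386 normalized counts (median 3508) in livers labelled Trib1-KO, 2964 to 5380 (3847) in Cebpa-KO livers, 2273 to 3222 (2777) in livers labelled DKO and 3537 to 5142 (4284) in WT livers. All livers labelled DKO lay below all WT livers, and the log2 difference was -0.67 ± 0.18 (SE, limma adjusted p = 0.0225). This call did not hold without A3, G1 or G3, when the limma adjusted p was 0.0564 to 0.0569. Acat2, the cytosolic thiolase that condenses acetyl-CoA, ranged from 1172 to 1984, 1310 to 1912, 1212 to 1462 and 1261 to 1885 in the same order of groups. It was not called in any comparison with WT; for livers labelled DKO the log2 difference was -0.38 ± 0.12 (limma adjusted p = 0.0538), and 0.0118 without WT B3, the lowest WT library. Its values are uncertain, since 43.7% of the 31-base words of its transcripts also occur in other genes, most often Acat3, which was more abundant (means of 6060, 6174, 6075 and 6810 in the same order).

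Hmgcs1, the cytosolic HMG-CoA synthase whose promoter is printed above, stood at 2581 to 4543 normalized counts (median 3709) in livers labelled Trib1-KO, 2039 to 3265 (2462) in Cebpa-KO livers, 1829 to 3163 (2658) in livers labelled DKO and 3055 to 6767 (4701) in WT livers. The Cebpa-KO livers were low and overlapped the WT range only at its lower end. The log2 difference from WT was -0.89 ± 0.18 in Cebpa-KO livers (limma adjusted p = 0.00126) and -0.92 ± 0.18 in livers labelled DKO (limma adjusted p = 0.00167). In livers labelled Trib1-KO it was -0.39 ± 0.18 and not called (limma adjusted p = 0.128, and 0.034 without WT B1).

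The 3 enzymes that phosphorylate and decarboxylate mevalonate followed. Mvk, mevalonate kinase, stood at 179 to 317 (median 242) in livers labelled Trib1-KO, 178 to 264 (249) in Cebpa-KO livers, 148 to 483 (258) in livers labelled DKO and 303 to 474 (423) in WT livers. It fell by 0.78 ± 0.19 on the log2 scale in livers labelled Trib1-KO (limma adjusted p = 0.00392) and by 0.79 ± 0.19 in Cebpa-KO livers (limma adjusted p = 0.00798), where all libraries lay below WT. In livers labelled DKO, whose library H3 reached the top of the WT range, the difference of -0.65 ± 0.19 (limma adjusted p = 0.0432) was lost when any 1 of 10 of the 12 libraries was left out (all but B3 and H3, limma adjusted p = 0.0529 to 0.119). Pmvk, phosphomevalonate kinase, stood at 421 to 911 (685) in livers labelled Trib1-KO, 621 to 1067 (780) in Cebpa-KO livers, 417 to 729 (570) in livers labelled DKO and 806 to 1550 (1014) in WT livers. It was called in livers labelled Trib1-KO (-0.62 ± 0.18, limma adjusted p = 0.0124) and in livers labelled DKO (-0.92 ± 0.18, limma adjusted p = 0.00198), and livers labelled DKO did not overlap with WT. Mvd, mevalonate diphosphate decarboxylase, stood at 133 to 250 (168) in livers labelled Trib1-KO, 90.7 to 141 (110) in Cebpa-KO livers, 83.8 to 176 (109) in livers labelled DKO and 152 to 380 (290) in WT livers. All Cebpa-KO livers lay below all WT livers. Its differences were -0.60 ± 0.21 in livers labelled Trib1-KO (limma adjusted p = 0.0418), -1.19 ± 0.21 in Cebpa-KO livers (limma adjusted p = 0.000411) and -1.22 ± 0.21 in livers labelled DKO (limma adjusted p = 0.000586). The first of these calls was lost without any 1 of A1, A2, A3, B2, C1, C2, C3, D1 or D2 (limma adjusted p = 0.0518 to 0.112).

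Idi1 and Fdps, the last enzymes before the branch point, differed in which group was lowest. Idi1, which interconverts the isoprenoid building blocks, stood at 1158 to 1592 (median 1460) in livers labelled Trib1-KO, 1749 to 3064 (2350) in Cebpa-KO livers, 1452 to 2698 (1662) in livers labelled DKO and 1955 to 6932 (3857) in WT livers. Every liver labelled Trib1-KO lay below every WT liver, with a difference of -1.42 ± 0.23 (limma adjusted p = 4.53e-05). Livers labelled DKO differed by -1.03 ± 0.23 (limma adjusted p = 0.00646, and 0.0641 in a fit of these livers and WT alone). Cebpa-KO livers differed by -0.70 ± 0.23 and were not called (limma adjusted p = 0.0546), though without B1, B3 or E3 the limma adjusted p was 0.0276, 0.00685 or 0.0448. Fdps, which makes farnesyl diphosphate, stood at 3144 to 5818 (4243) in livers labelled Trib1-KO, 2212 to 3314 (2741) in Cebpa-KO livers, 1853 to 3380 (2306) in livers labelled DKO and 2437 to 6612 (5517) in WT livers. WT B3, at 2437, lay within the range of the Cebpa-KO livers and of the livers labelled DKO, and the other WT livers lay above both. The difference was -0.88 ± 0.19 in Cebpa-KO livers (limma adjusted p = 0.00288) and -1.02 ± 0.19 in livers labelled DKO (limma adjusted p = 0.0013). In livers labelled Trib1-KO it was -0.22 ± 0.19 (limma adjusted p = 0.478), and -0.42 without B3 (limma adjusted p = 0.0421). Other genes hold 18.8% of the 31-base words of Idi1, most often the Gm13502 locus, and 27.9% of those of Fdps, most often Gm43738. Gm13502 averaged 230, 320, 313 and 640 normalized counts in livers labelled Trib1-KO, Cebpa-KO livers, livers labelled DKO and WT livers. Gm43738 averaged 7.59, 8.04, 5.70 and 11.8 in the same order, far below Fdps. Both values are uncertain for this reason, by an amount that was not tested.

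**Figure D3:**
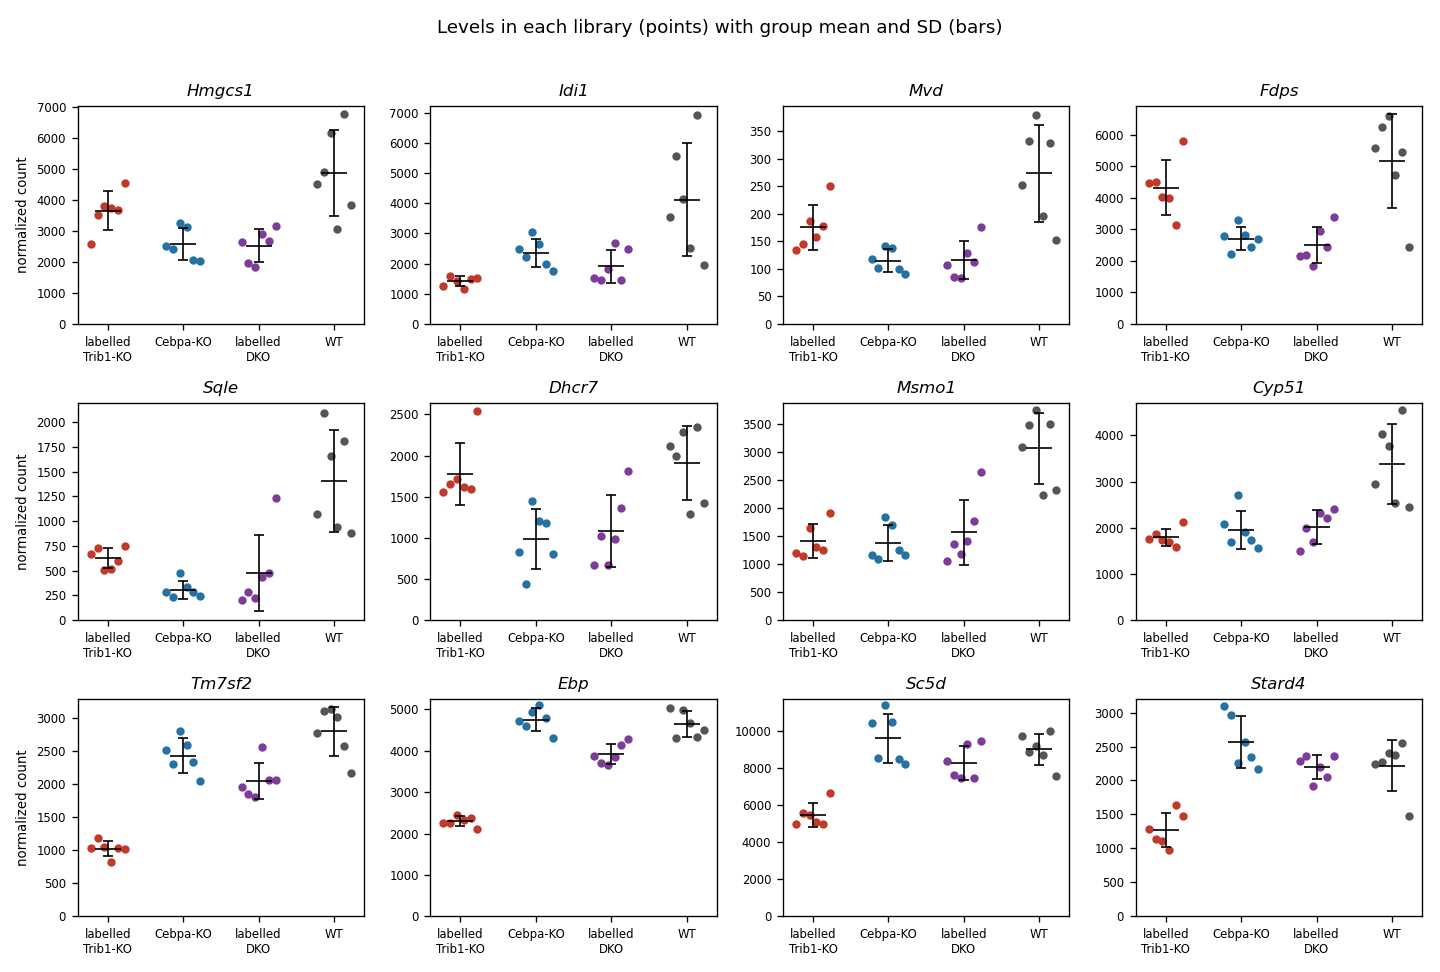
Normalized counts of 12 genes in each library (points), with group mean and SD (bars), for livers labelled Trib1-KO, Cebpa-KO livers, livers labelled DKO and WT livers; each vertical axis starts at 0. Hmgcs1, Mvd, Fdps, Sqle and Dhcr7 are lower in Cebpa-KO livers than in livers labelled Trib1-KO, the Msmo1 and Cyp51 values of these groups overlap, and Idi1, Tm7sf2, Ebp, Sc5d and Stard4 are lowest in livers labelled Trib1-KO.

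In the late branch, the genes of the first steps were low in several knockout groups. Fdft1, squalene synthase, stood at 1198 to 1555 (median 1227) in livers labelled Trib1-KO, 1234 to 1942 (1550) in Cebpa-KO livers, 1082 to 2280 (1362) in livers labelled DKO and 1557 to 2828 (2406) in WT livers. Livers labelled Trib1-KO ended, with D3 at 1555, just below the lowest WT liver at 1557, and differed by -0.76 ± 0.16 (limma adjusted p = 0.000761). For livers labelled DKO the difference was -0.60 ± 0.16 (limma adjusted p = 0.0228, and 0.0536 to 0.0665 without A2, A3, B2, G2 or G3). For Cebpa-KO livers it was -0.48 ± 0.16 and not called (limma adjusted p = 0.0566, and 0.02, 0.021 or 0.039 without B1, B3 or F1). Fdft1 shares 14.3% of its 31-base words with other genes.

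Sqle, squalene epoxidase, a rate-limiting enzyme of the sterol arm, had the largest fall of the 28 genes in Cebpa-KO livers. It stood at 508 to 748 (median 632) in livers labelled Trib1-KO, 232 to 474 (282) in Cebpa-KO livers, 206 to 1236 (359) in livers labelled DKO and 875 to 2096 (1363) in WT livers. The livers labelled Trib1-KO lay below all WT livers and above all Cebpa-KO livers, while library H3 labelled DKO, at 1236, lay within the WT range. Differences from WT were -1.10 ± 0.31 in livers labelled Trib1-KO (limma adjusted p = 0.0119), -2.15 ± 0.31 in Cebpa-KO livers (limma adjusted p = 4.06e-05) and -1.78 ± 0.31 in livers labelled DKO (limma adjusted p = 0.000691). Sqle lies on chromosome 15 (59315077 to 59331192, plus strand, GRCm38), 317 kb before Trib1 (59648350 to 59657099) on the same strand.

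Lss, which closes the sterol rings, stood at 394 to 1249 (median 745) in livers labelled Trib1-KO, 885 to 1107 (997) in Cebpa-KO livers, 661 to 1358 (853) in livers labelled DKO and 733 to 2350 (1361) in WT livers. All groups overlapped, and a call was made for livers labelled Trib1-KO (-0.90 ± 0.24, limma adjusted p = 0.00691). Cyp51, the lanosterol demethylase, stood at 1580 to 2125 (1745) in livers labelled Trib1-KO, 1569 to 2713 (1822) in Cebpa-KO livers, 1497 to 2408 (2104) in livers labelled DKO and 2453 to 4558 (3359) in WT livers. It was called in all 3 comparisons, at -0.88 ± 0.15, -0.78 ± 0.15 and -0.73 ± 0.15 (limma adjusted p = 9.84e-05, 0.00105 and 0.00364). Msmo1, a methyl sterol oxidase, stood at 1154 to 1919 (1271) in livers labelled Trib1-KO, 1092 to 1850 (1208) in Cebpa-KO livers, 1062 to 2640 (1382) in livers labelled DKO and 2239 to 3747 (3287) in WT livers. Both groups with a single floxed gene lay wholly below WT. Msmo1 fell by 1.12 ± 0.19, 1.16 ± 0.19 and 1.01 ± 0.19 on the log2 scale (limma adjusted p = 9.75e-05, 0.000189 and 0.00159). Nsdhl, which acts with Msmo1 in removing methyl groups, stood at 1067 to 1540 (1233) in livers labelled Trib1-KO, 909 to 1558 (1197) in Cebpa-KO livers, 841 to 1443 (1086) in livers labelled DKO and 1176 to 2527 (2103) in WT livers. It was called in all 3 as well, at -0.61 ± 0.16, -0.72 ± 0.16 and -0.86 ± 0.16 (limma adjusted p = 0.00688, 0.0041 and 0.00141). Cyp51 overlaps Akap9 on the opposite strand.

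Hsd17b7 and Dhcr7 were called in livers with floxed Cebpa. Hsd17b7, the 3-ketosteroid reductase of the pathway, stood at 1236 to 1651 (median 1353) in livers labelled Trib1-KO, 728 to 1145 (954) in Cebpa-KO livers, 673 to 1378 (1185) in livers labelled DKO and 1462 to 2119 (1661) in WT livers. Cebpa-KO livers and livers labelled DKO lay wholly below WT, with differences of -0.89 ± 0.15 (limma adjusted p = 0.000178) and -0.65 ± 0.15 (limma adjusted p = 0.00699). Livers labelled Trib1-KO overlapped with WT (-0.33 ± 0.15, limma adjusted p = 0.115). Dhcr7, which makes cholesterol from 7-dehydrocholesterol, stood at 1555 to 2538 (1633) in livers labelled Trib1-KO, 442 to 1450 (999) in Cebpa-KO livers, 669 to 1814 (1007) in livers labelled DKO and 1286 to 2342 (2052) in WT livers. It differed from WT by -1.02 ± 0.25 in Cebpa-KO livers (limma adjusted p = 0.00928). In livers labelled DKO the difference was -0.87 ± 0.25 (limma adjusted p = 0.0403), lost without any 1 of A1, A2, A3, B2, G1, G2, G3 or H1 (limma adjusted p = 0.0666 to 0.108). In livers labelled Trib1-KO it was -0.09 ± 0.25 (limma adjusted p = 0.858).

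Tm7sf2, Ebp and Sc5d were lowest in livers labelled Trib1-KO. Tm7sf2, a sterol C14-reductase, stood at 820 to 1185 (median 1042) in livers labelled Trib1-KO, 2042 to 2798 (2427) in Cebpa-KO livers, 1800 to 2560 (2005) in livers labelled DKO and 2174 to 3143 (2894) in WT livers. Its difference from WT was -1.44 ± 0.10 in livers labelled Trib1-KO (limma adjusted p = 8.1e-11), -0.20 ± 0.10 in Cebpa-KO livers (limma adjusted p = 0.259) and -0.45 ± 0.10 in livers labelled DKO (limma adjusted p = 0.00708). Ebp, the sterol isomerase, stood at 2101 to 2446 (2298) in livers labelled Trib1-KO, 4295 to 5097 (4758) in Cebpa-KO livers, 3643 to 4290 (3858) in livers labelled DKO and 4313 to 5037 (4590) in WT livers. Livers labelled Trib1-KO stood apart from all others, at -1.01 ± 0.06 against WT (limma adjusted p = 2.18e-12). Livers labelled DKO lay just below WT (-0.24 ± 0.06, limma adjusted p = 0.0108), and Cebpa-KO livers were not called (0.03 ± 0.06, limma adjusted p = 0.819). Sc5d, the sterol C5-desaturase, stood at 5000 to 6676 (5287) in livers labelled Trib1-KO, 8215 to 11399 (9486) in Cebpa-KO livers, 7443 to 9466 (8002) in livers labelled DKO and 7590 to 9978 (9032) in WT livers. All libraries labelled Trib1-KO lay below those of the other 3 groups (-0.72 ± 0.09 against WT, limma adjusted p = 2.51e-06). Cebpa-KO livers and livers labelled DKO differed from WT by 0.08 ± 0.09 and -0.12 ± 0.09 (limma adjusted p = 0.676 and 0.555). Tm7sf2 overlaps Vps51 on the same strand and shares 12.9% of its 31-base words with other genes, and Vps51 itself averaged 368, 397, 349 and 370 in livers labelled Trib1-KO, Cebpa-KO livers, livers labelled DKO and WT livers.

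Per kilobase of merged transcript, WT livers held most of Fdps (3562 normalized counts per kb), Ebp (2661), Sc5d (1852) and Tm7sf2 (1652), while Sqle stood at 510, Mvk at 204 and Mvd at 156. On the same scale Ebp averaged 1317 and Tm7sf2 606 in livers labelled Trib1-KO. Of the isoprenoid genes, Coq2 stood at 377, Nus1 at 239, Dhdds at 181, Pdss2 at 97.4, Ggps1 at 57.3 and Pdss1 at 16.7 in WT livers. The levels of these 28 genes thus spanned from Fdps down to Soat1 at 13.7.

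The isoprenoid genes draw on the same precursors. Ggps1, which makes geranylgeranyl diphosphate, stood at 230 to 284 (median 244) in livers labelled Trib1-KO, 209 to 252 (237) in Cebpa-KO livers, 150 to 278 (244) in livers labelled DKO and 227 to 286 (249) in WT livers. Pdss1 and Pdss2, the subunits that build the ubiquinone side chain, had medians of 39.1 and 235 in livers labelled Trib1-KO, 41.3 and 262 in Cebpa-KO livers, 39.0 and 272 in livers labelled DKO and 38.9 and 243 in WT livers. These groups overlapped widely. Coq2, which joins that chain to its ring, stood at 533 to 650 (583) in livers labelled Trib1-KO, 697 to 851 (741) in Cebpa-KO livers, 626 to 766 (701) in livers labelled DKO and 560 to 823 (636) in WT livers. Its differences from WT were -0.16 ± 0.08, 0.20 ± 0.08 and 0.11 ± 0.08 and were not called (limma adjusted p = 0.165, 0.119 and 0.502), although the second was called higher without WT A1 (0.27, limma adjusted p = 0.0167). Other genes hold 13.5% of the 31-base words of Coq2. Dhdds and Nus1, which form the dolichol chain synthase, had medians of 575 and 1047 in livers labelled Trib1-KO, 521 and 1198 in Cebpa-KO livers, 645 and 1099 in livers labelled DKO and 601 and 1032 in WT livers. The log2 differences of the 6 genes from WT lay between -0.16 (Coq2, livers labelled Trib1-KO) and 0.29 ± 0.17 (Pdss2, Cebpa-KO livers), and a p that misses the threshold does not show that the levels were equal.

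Of the genes that act on finished cholesterol, Stard4 and Soat2 were lower in livers labelled Trib1-KO. Stard4, a carrier of cholesterol between membranes, stood at 977 to 1637 (median 1215) in livers labelled Trib1-KO, 2176 to 3094 (2458) in Cebpa-KO livers, 1919 to 2366 (2243) in livers labelled DKO and 1473 to 2549 (2320) in WT livers. It fell by 0.80 ± 0.13 on the log2 scale in livers labelled Trib1-KO (limma adjusted p = 3.8e-05), and WT B3 at 1473 was the WT library that overlapped them. Cebpa-KO livers and livers labelled DKO differed by 0.22 ± 0.13 and 0.00 ± 0.13 (limma adjusted p = 0.341 and 0.997). Soat2, the hepatocyte enzyme that makes cholesteryl esters, stood at 529 to 674 (605) in livers labelled Trib1-KO, 823 to 1011 (904) in Cebpa-KO livers, 686 to 1004 (775) in livers labelled DKO and 704 to 921 (773) in WT livers. Livers labelled Trib1-KO did not overlap with the other 3 groups (-0.39 ± 0.09 against WT, limma adjusted p = 0.00174).

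Soat1, the esterifying enzyme abundant in macrophages, went the other way. It stood at 168 to 319 (median 181) in livers labelled Trib1-KO, 39.3 to 165 (111) in Cebpa-KO livers, 55.4 to 223 (170) in livers labelled DKO and 47.4 to 217 (103) in WT livers. The difference of livers labelled Trib1-KO from WT, 0.95 ± 0.36, was not called (limma adjusted p = 0.0624, and 0.0226 without WT A3). Of 12 Kupffer cell and macrophage markers, 10 were higher in livers labelled Trib1-KO than in WT, where 11.8% of all genes were called higher. In the other 2 comparisons with WT, 0 of these markers were called. Their summed level was 18896 to 22138 normalized counts in livers labelled Trib1-KO, 12903 to 16884 in Cebpa-KO livers, 11427 to 17827 in livers labelled DKO and 9915 to 17988 in WT livers. Their part in the result was not tested.

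Markers of hepatocytes, the cells in which most of this pathway runs, moved as well. Of 9 measured markers, 6 were lower and 0 higher than WT in livers labelled Trib1-KO, 4 lower and 2 higher in Cebpa-KO livers, and 3 lower and 1 higher in livers labelled DKO. The share of all genes called lower was 10.9%, 5.22% and 3.25% in the same order of groups, and the share called higher 11.8%, 4.6% and 2.84%. The mean log2 level over the markers differed from WT by -0.77, -0.62 and -0.33. Their summed level was 917977 to 1073570 in livers labelled Trib1-KO, 2515830 to 3325100 in Cebpa-KO livers, 2522410 to 2998240 in livers labelled DKO and 2087490 to 3058360 in WT livers. Much of this sum was Alb (serum albumin), whose mean was 356731 in livers labelled Trib1-KO, 2295000 in Cebpa-KO livers, 1915000 in livers labelled DKO and 1451670 in WT livers, so in Cebpa-KO livers the mean of the sum lay above WT and the mean log2 level below it. Of 8 stellate cell markers, 3 were higher in livers labelled Trib1-KO, with summed levels of 8152 to 10839, 6932 to 8315, 6152 to 8368 and 6799 to 9531 in the same order of groups. Of 6 neutrophil markers, 3 were higher in livers labelled Trib1-KO, 1 in Cebpa-KO livers and 1 in livers labelled DKO, with sums of 131 to 405, 98.6 to 362, 115 to 446 and 65.5 to 145. Of 7 cholangiocyte markers, 1 (Spp1) was higher in Cebpa-KO livers and in livers labelled DKO, with sums of 816 to 989, 2597 to 7840, 2368 to 5386 and 1099 to 1510. Other cholangiocyte markers were lower than in WT, 2 in livers labelled Trib1-KO (Krt19 and Epcam), 1 in Cebpa-KO livers (Sox9) and 2 in livers labelled DKO (Epcam and Sox9). Their mean log2 level differed from WT by -0.62, -0.21 and -0.49. Of 8 sinusoidal endothelial markers, 3 were higher and 2 lower in livers labelled Trib1-KO. In Cebpa-KO livers 1 of them was higher and 0 lower, and in livers labelled DKO 0 were called. Of 7 lymphocyte markers, 2 were higher and 0 lower in livers labelled Trib1-KO, and 0 were called in the other 2 groups. The part of these shifts in the sterol gene results was not tested.

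Both single-gene groups were set against each other directly, a comparison added after the values had been seen. It shares no library with WT. Of the 28 genes, 7 were higher and 7 lower in livers labelled Trib1-KO than in Cebpa-KO livers, where 16.9% and 15.8% of all genes were called higher and lower. The higher genes were Sqle (1.05 ± 0.31, limma adjusted p = 0.0113), Dhcr7 (0.93 ± 0.25, limma adjusted p = 0.00549), Fdps (0.66 ± 0.19, limma adjusted p = 0.00848), Mvd (0.59 ± 0.21), Hsd17b7 (0.56 ± 0.15, limma adjusted p = 0.00402), Hmgcs1 (0.51 ± 0.18) and Soat1 (1.00 ± 0.36). The lower genes were Tm7sf2 (-1.25 ± 0.10, limma adjusted p = 4.13e-10), Ebp (-1.05 ± 0.06, limma adjusted p = 4.48e-13), Stard4 (-1.02 ± 0.13, limma adjusted p = 6.02e-07), Sc5d (-0.81 ± 0.09, limma adjusted p = 2.07e-07), Idi1 (-0.72 ± 0.23, limma adjusted p = 0.0168), Soat2 (-0.60 ± 0.09, limma adjusted p = 6.95e-06) and Coq2 (-0.36 ± 0.08, limma adjusted p = 0.000823). All 7 lower genes, and Sqle, Hsd17b7, Dhcr7 and Soat1 among the higher ones, had libraries that did not overlap, as did 9.14% of all genes in the lower and 9.68% in the higher direction. Msmo1, Cyp51, Mvk and Nsdhl differed by 0.05 ± 0.19, -0.10 ± 0.15, 0.01 ± 0.19 and 0.11 ± 0.16 and were not called.

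Of the 7 higher calls, 3 were close to the threshold. Hmgcs1 (limma adjusted p = 0.0295) was lost without any 1 of C3, D1, D3, E2, F2 or F3, at 0.0507 to 0.0735. Mvd (limma adjusted p = 0.0337) was lost without C3, D2, D3, E2, F2 or F3, at 0.0545 to 0.0922. Soat1 (limma adjusted p = 0.0377) was lost without C1, C2, D2, E2, F1 or F3, at 0.0508 to 0.119. The count of higher genes was therefore 4 without E2 or F3, and 4 when libraries were scaled to equal totals. Without D3, Lss was called lower too (-0.62, limma adjusted p = 0.0428).

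**Figure D4:**
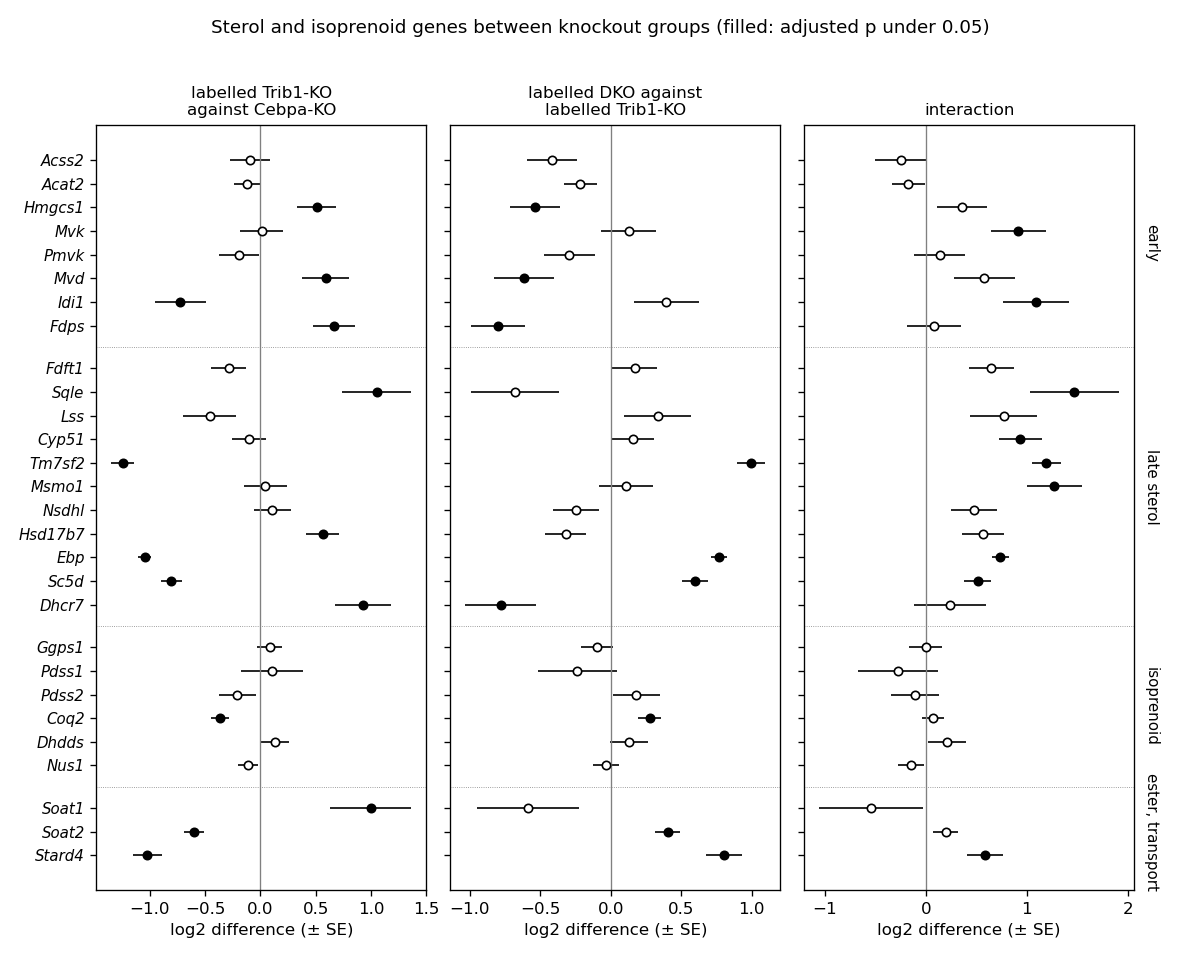
Log2 difference with its standard error for each of the 28 genes between livers labelled Trib1-KO and Cebpa-KO livers (left), between livers labelled DKO and livers labelled Trib1-KO (middle), and for the interaction (right). Filled points passed the limma test, 7 higher and 7 lower on the left, 6 higher and 4 lower in the middle and 9 higher on the right.

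Livers labelled DKO were then compared with each group that had 1 floxed gene. Against Cebpa-KO livers, 1 of 28 genes was lower (Ebp, -0.28 ± 0.06, limma adjusted p = 0.0426, all libraries lower, as in 0.439% of all genes) and 0 were higher, where 0.121% and 0.0808% of all genes were called. At an unadjusted p under 0.05, limma had 7 lower and 0 higher. The shares of all genes just given are for adjusted p, and those at the unadjusted threshold were not counted. The Ebp call was lost with a term for the letter in the library name (limma adjusted p = 0.0514), and without any 1 of E1, E2, E3, F1, F2, G1, G2, G3 or H1 (limma adjusted p = 0.0667 to 0.119). Against livers labelled Trib1-KO, 6 genes were higher and 4 lower, where 14.6% and 15.7% of all genes were called. With libraries scaled to equal totals without Mup genes, 4 were higher and 12 lower: Coq2 and Soat2 lost their calls, and Acss2, Acat2, Pmvk, Sqle, Nsdhl, Hsd17b7, Ggps1 and Nus1 were called lower as well. The higher ones were Tm7sf2 (0.99 ± 0.10, limma adjusted p = 2.41e-08), Stard4 (0.81 ± 0.13, limma adjusted p = 2.15e-05), Ebp (0.77 ± 0.06, limma adjusted p = 1.39e-10), Sc5d (0.60 ± 0.09, limma adjusted p = 1.95e-05), Soat2 (0.40 ± 0.09, limma adjusted p = 0.00095) and Coq2 (0.27 ± 0.08, limma adjusted p = 0.00984, but -0.0075 with libraries scaled to equal totals without Mup genes). In the first 5 of these the libraries did not overlap, as in 8.14% of all genes. The lower ones were Fdps (-0.80 ± 0.19, limma adjusted p = 0.00197), Dhcr7 (-0.78 ± 0.25, limma adjusted p = 0.0202), Mvd (-0.61 ± 0.21, limma adjusted p = 0.0293) and Hmgcs1 (-0.54 ± 0.18, limma adjusted p = 0.0229). Fdps kept its call when any library was left out. Hmgcs1 was lost without D3, G2 or G3 (limma adjusted p = 0.0598 to 0.0672), Mvd without C3, D3, G1, G2 or G3 (0.05 to 0.0819) and Dhcr7 without D3, G1 or G3 (0.056 to 0.0599), so that 1 gene was lower without D3 or G3 and 2 without G1 or G2. Sqle, at -0.68 ± 0.31, was not called (limma adjusted p = 0.11), and without H3 it stood at -1.01 (limma adjusted p = 0.00252). Acss2 was called lower without D2 (-0.56, limma adjusted p = 0.0129).

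The interaction asks whether the difference between livers with and without floxed Trib1 was the same with and without floxed Cebpa. It is the difference between livers labelled DKO and Cebpa-KO livers minus the difference between livers labelled Trib1-KO and WT livers. It was positive and called in 9 of the 28 genes and negative in 0, where 6.35% and 6.22% of all genes were called. At an unadjusted p under 0.05 limma had 12 positive and 0 negative, a threshold at which the share of all genes was not counted. The 9 called were 2 early genes (Idi1 and Mvk), 6 late genes (Sqle, Msmo1, Tm7sf2, Cyp51, Ebp and Sc5d) and Stard4. Tm7sf2 is an example, with -0.25 ± 0.10 for livers labelled DKO against Cebpa-KO livers, -1.44 ± 0.10 for livers labelled Trib1-KO against WT and an interaction of 1.19 ± 0.14 (limma adjusted p = 1.93e-06). For Ebp these values were -0.28 ± 0.06, -1.01 ± 0.06 and 0.74 ± 0.08 (limma adjusted p = 6.09e-07). Msmo1 had 0.16 ± 0.19, -1.12 ± 0.19 and 1.27 ± 0.27 (limma adjusted p = 0.00213), and Cyp51 0.06 ± 0.15, -0.88 ± 0.15 and 0.94 ± 0.22 (limma adjusted p = 0.00399). Msmo1 and Cyp51 were already lower in Cebpa-KO livers than in WT, whereas Ebp and Sc5d were not called there. A positive interaction was not particular to the 28 genes. Of 9 measured hepatocyte markers, 6 were called positive and 0 negative, and of 12 Kupffer cell and macrophage markers, 0 positive and 7 negative. The part of these marker shifts in the interaction of the sterol genes was not tested. The interactions of Idi1, Sqle and Stard4 were close to the threshold and were lost without A2 or H1 (Idi1, limma adjusted p = 0.051 and 0.0501), without A2 or B2 (Sqle, 0.0544 and 0.0508), and without any 1 of A3, B1, B2, C2, C3, D1, E3, F2, F3, G2 or H3 (Stard4, 0.0508 to 0.0596). In turn, without WT B3 the interactions of Fdft1, Lss and Nsdhl were called as well, for 12 genes in all (limma adjusted p = 0.0234, 0.0459 and 0.039), and without G3 that of Hsd17b7 (0.00654).

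Scaling bears on the comparisons with livers labelled Trib1-KO, where Mup genes took a large share of the counts. When libraries were scaled to the same total without Mup genes, the median of all genes moved to 0.24 for livers labelled Trib1-KO against WT, to -0.28 for livers labelled DKO against livers labelled Trib1-KO, to -0.23 for the interaction and to 0.29 for livers labelled Trib1-KO against Cebpa-KO livers. On that scale 11 genes were lower in livers labelled Trib1-KO than in WT, without Pmvk, Mvd, Nsdhl and Soat2, and 2 were higher (Nus1 and Soat1). Tm7sf2 stood at -1.20, Idi1 at -1.18, Msmo1 at -0.87, Sqle at -0.85, Ebp at -0.77 and Stard4 at -0.56 on it, all still called. No gene called lower in Cebpa-KO livers or in livers labelled DKO against WT lost its call. The interaction was called in 5 of the 9 genes, without Mvk, Idi1, Sc5d and Stard4, and that of Nus1 was called negative (-0.39, limma adjusted p = 0.044). Between livers labelled Trib1-KO and Cebpa-KO livers, Idi1 and Coq2 lost their calls. The isoprenoid genes Ggps1 (0.37, limma adjusted p = 0.0174) and Dhdds (0.42, limma adjusted p = 0.0154) were called higher there, which gave 9 higher and 5 lower genes.

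The regulators of the pathway were read from a list of 7 genes of SREBP processing. In livers labelled Trib1-KO 1 was higher and 3 lower than in WT, where 11.8% and 10.9% of all genes were called higher and lower. In Cebpa-KO livers 0 were higher and 2 lower, against 4.6% and 5.22% of all genes. In livers labelled DKO 0 were higher and 2 lower as well, against 2.84% and 3.25%. Insig2, which holds the SREBP complex in the endoplasmic reticulum, stood at 16447 to 20981 (median 17674) in livers labelled Trib1-KO, 1251 to 1964 (1746) in Cebpa-KO livers, 1583 to 2659 (1947) in livers labelled DKO and 4153 to 9362 (7037) in WT livers. No knockout group overlapped with WT, and the differences of 1.40 ± 0.16, -2.09 ± 0.16 and -1.79 ± 0.16 (limma adjusted p = 3.95e-07, 2.92e-09 and 8.1e-08) had opposite signs. Srebf2, which encodes SREBP-2, stood at 727 to 1116 (970) in livers labelled Trib1-KO, 500 to 1066 (729) in Cebpa-KO livers, 724 to 1046 (840) in livers labelled DKO and 1022 to 1623 (1156) in WT livers. It was called in Cebpa-KO livers (-0.73 ± 0.15, limma adjusted p = 0.00168) and in livers labelled DKO (-0.53 ± 0.15, limma adjusted p = 0.0319) and not in livers labelled Trib1-KO (-0.38 ± 0.15, limma adjusted p = 0.0686). The genes lower in livers labelled Trib1-KO were Insig1 (-0.85 ± 0.11), Scap (-0.68 ± 0.10) and Srebf1 (-0.64 ± 0.17).

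Further lists held genes of the routes that use the isoprenoid products, to be read against the share of all genes called: 11.8% higher and 10.9% lower in livers labelled Trib1-KO, 4.6% and 5.22% in Cebpa-KO livers, and 2.84% and 3.25% in livers labelled DKO. Of 10 genes of the ubiquinone ring and its assembly, 1 was higher and 2 lower in livers labelled Trib1-KO, 1 higher (Coq10b, 0.79 ± 0.25) and 1 lower (Coq10a, -0.41 ± 0.11) in Cebpa-KO livers, and 0 in either direction by limma in livers labelled DKO (1 higher and 2 lower at an unadjusted p under 0.05). Coq8b, a kinase-like protein of ubiquinone assembly, averaged 1385 ± 252 in livers labelled Trib1-KO, 326 ± 45.0 in Cebpa-KO livers, 328 ± 46.7 in livers labelled DKO and 431 ± 82.5 in WT livers (SD, n = 6 each), with a difference of 1.69 ± 0.13 in livers labelled Trib1-KO (limma adjusted p = 8.21e-10). Coq5 and Coq7 were lower there (-0.25 ± 0.08 and -0.25 ± 0.09). Of 10 genes of protein prenylation, livers labelled Trib1-KO had 1 higher (Fnta, 0.26 ± 0.08) and 1 lower (Rabggta, -0.45 ± 0.12). Rabggtb, a subunit of the enzyme that prenylates Rab proteins, was lower in Cebpa-KO livers (-0.26 ± 0.07) and in livers labelled DKO (-0.34 ± 0.07). Of 8 genes of dolichol steps, Srd5a3 was higher (0.32 ± 0.11) and Dolk and Dpm1 lower (-0.29 ± 0.08 and -0.28 ± 0.07) in livers labelled Trib1-KO, and 0 were called in the other 2 groups. Alternative scalings were not read for these lists. With libraries scaled to equal totals without Mup genes, the median of all genes in livers labelled Trib1-KO against WT moved to 0.24. Differences of about that size, such as those of Coq5, Coq7, Dolk and Dpm1 there, may therefore depend on the scaling.

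Relatives of the early enzymes serve other routes. Acat1, the mitochondrial thiolase, was lower in livers labelled Trib1-KO (-0.59 ± 0.12, limma adjusted p = 0.000807). Acss3, a mitochondrial short-chain acyl-CoA synthetase, averaged 797 ± 192 in livers labelled Trib1-KO, 258 ± 116 in Cebpa-KO livers, 149 ± 86.5 in livers labelled DKO and 397 ± 167 in WT livers (SD, n = 6 each). It was higher in livers labelled Trib1-KO (1.10 ± 0.38, limma adjusted p = 0.0375) and lower in livers labelled DKO (-1.53 ± 0.38, limma adjusted p = 0.0146), and its interaction was -2.02 ± 0.54 (limma adjusted p = 0.0126).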

How the data were processed

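Whole-liver RNA was sequenced from stranded, poly(A)-selected libraries, per the labels' protocols. The deposited values are of the unit signal: from the values, the authors made estimated counts per gene and divided them by a factor per library. Salmon, DESeq2 and GRCm38.p6 are named in the submitters' processing notes, and their roles and versions are not given in the sources used here. Whole reads could not be recovered, so a count test was not used. The read depth behind a value is therefore not known, and the tests rest on the spread between libraries. Columns name the group and not the mouse or cohort, and no library was assigned to a cohort.

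The test was limma (version 3.58.1, R version 4.3.3) on log2(value + 1), with the prior variance following the mean level, for genes with a mean of at least 1, in a single model with 4 group means over 24 libraries. Fold changes on this scale understate the change of low genes. Benjamini-Hochberg adjustment ran over all 19810 genes, and genes with an adjusted p under 0.05 were called. The scripts were tested on simulated data. All 28 genes were described, and other genes were named with values from pathway lists, from marker lists and, for the labels, as Trib1 and Cebpa. The members, lists and tests were chosen with earlier results of these data known. Positions, lengths and overlaps came from GENCODE M21 (GRCm38), and shared sequence was counted as words of 31 bases over its transcripts. Alternatives changed the pseudocount, the filter, the scaling, the libraries in the fit, the trend, the weights and a term for the number in the column name, and left out each library. They were read for the 28 genes and not for the pathway and marker lists. Other genes of the pathway were not analysed here.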

Additional observations from a re-analysis of the deposited data

Results flagged for a closer look

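Of 112 gene and group combinations, 9 held a library that stood far from the other 5 of its group by Dixon's ratio, and chance flags about 1 in 20. Library D3 labelled Trib1-KO was high for Fdft1 (1555 normalized counts) and Dhcr7 (2538). Cebpa-KO library E2 was low for Soat1 (39.3) and F3 for Pdss1 (25.0). Library H3 labelled DKO was low for Ggps1 (150) and G1 for Nus1 (896). WT library B3 was low for Acat2 (1261), Fdps (2437) and Stard4 (1473).

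In 9 genes the difference between livers with and without floxed Trib1 was not the same with and without floxed Cebpa, by limma's interaction term. The log2 values were 0.91 for Mvk, 1.09 for Idi1, 1.47 for Sqle, 0.94 for Cyp51, 1.19 for Tm7sf2, 1.27 for Msmo1, 0.74 for Ebp, 0.51 for Sc5d and 0.59 for Stard4.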

How the results depend on the processing

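Of the 75 called gene results, 12 alternatives gave 900 values, of which 864 kept direction and call, 35 kept direction but not the call and 1 reversed: Coq2 in livers labelled DKO against livers labelled Trib1-KO went to -0.0075 with libraries scaled to equal totals without Mup genes, a scaling that moves the median of all genes. That scaling also gave 2 genes higher in livers labelled Trib1-KO against WT, 12 lower in livers labelled DKO against livers labelled Trib1-KO, and 5 higher and 1 lower interactions. A fit of the compared groups alone, and array weights, each gave 1 gene (Soat1) higher in livers labelled Trib1-KO against WT. The Ebp difference between livers labelled DKO and Cebpa-KO livers gave 0 calls without a filter, without a trend or with those groups alone, and for these the cause was not tested. For livers labelled DKO against WT, a fit of those groups alone gave 13 lower genes in place of 16. Mvk, Idi1, Fdft1 and Dhcr7 lost their calls in it and Acat2 was called. Without a filter or without a trend there were 14, without Mvk and Dhcr7. Scaling to equal totals left 4 genes higher in livers labelled Trib1-KO than in Cebpa-KO livers.

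Leaving out each library gave 0 to 1 higher and 14 to 16 lower genes for livers labelled Trib1-KO against WT, 0 to 1 higher and 10 to 12 lower for Cebpa-KO against WT, 0 higher and 12 to 17 lower for livers labelled DKO against WT, and 0 higher and 0 to 1 lower for livers labelled DKO against Cebpa-KO. It gave 6 higher and 1 to 5 lower for livers labelled DKO against livers labelled Trib1-KO, 7 to 12 higher and 0 lower interactions, and 4 to 7 higher and 7 to 8 lower for livers labelled Trib1-KO against Cebpa-KO. Of the 75 results, 60 kept their call in each of these fits. No paired analysis was possible because the columns carry no mouse number that groups share; a term for the number in the column name changed no call. A term for the first or second letter of each group, chosen after seeing the data since libraries G and H labelled DKO lay apart, gave 0 in place of 1 lower gene for livers labelled DKO against Cebpa-KO (Ebp, limma adjusted p = 0.0514) and kept the other 74 calls with 0 gained; the labels do not call the letters a cohort. A planned TMM scaling was not run, since the values are not counts.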
